A study of Mus musculus with 5 samples.

Results

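Neutrophils were taken as the cells that the authors' deposited annotation calls Neutrophils in 3 droplet libraries of leukocytes from 5555 melanomas, matched to the expression matrix by cell name. Cells whose barcode occurred more than once were left out. This gave 392 neutrophils among 11818 annotated cells, of which 205 came from the Ptgs+/+ library, 111 from the Ptgs-/- library and 76 from the NK-depleted Ptgs-/- library.

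The tumours were grown under the skin of C57BL/6 mice from 5555 melanoma cells and taken 4 days after injection, and live CD45+ cells were sorted and run on the 10x Genomics platform. In the Ptgs+/+ group the injected 5555 cells were Ptgs+/+ and the mice received no treatment. In the Ptgs-/- group the injected 5555 cells were Ptgs-/-, that is, they lacked the cyclooxygenase genes needed to make prostaglandins, and the mice received no treatment. The third group had the same Ptgs-/- tumours in mice depleted of NK cells with anti-NK1.1 antibody (clone PK136) and anti-Asialo GM-1. The deletion is carried by the tumour cells and the sort kept leukocytes, so it could not be checked in these cells, and host cells kept their own Ptgs genes. Each group was 1 library, and the number of mice or tumours behind a library is not given in the sources used here. Differences between groups therefore have no replicate check: no p-value is given, intervals are 95% intervals that cover counting error only, and library and group cannot be told apart. The annotation listed 137, 510 and 45 NK cells in the Ptgs+/+, Ptgs-/- and NK-depleted Ptgs-/- libraries.

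Neutrophils are short-lived granulocytes that leave the bone marrow under the control of G-CSF and CXCR4 and enter inflamed tissue along gradients of CXCR2 ligands, formyl peptides, complement fragments and leukotrienes. Their granule proteins are mostly transcribed in marrow precursors, while mature cells in tissue transcribe cytokines, chemokines and survival genes. They hold little RNA, so in droplet data they yield few transcripts per cell. Prostaglandin E2 acts on myeloid cells through the cAMP-coupled receptors EP2 and EP4, encoded by Ptger2 and Ptger4, and tumour prostaglandins are known to shape myeloid inflammation.

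The annotated class carried the transcripts of mature neutrophils in each library. Levels are given as the mean CPM over cells, that is, counts of UMIs (the molecular barcodes that count transcripts) with each cell scaled to a total of 1000000. S100a8, a subunit of the calcium-binding alarmin calprotectin, had a mean of 10728 CPM in Ptgs+/+, 9878 CPM in Ptgs-/- and 4742 CPM in NK-depleted Ptgs-/- neutrophils. In the class with the next highest mean in the same library it had 365, 444 and 190 CPM. S100a9, the other calprotectin subunit, had 15427, 8563 and 4860 CPM, against at most 634, 642 and 118 CPM in any other class. For both genes the NK-depleted library had the lowest neutrophil mean, and neutrophils stood above every other class in all 3 libraries.

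Csf3r, the G-CSF receptor, had 1905, 1703 and 1360 CPM in the Ptgs+/+, Ptgs-/- and NK-depleted Ptgs-/- neutrophils, against at most 152, 144 and 146 CPM in another class. Cxcr2, the receptor for the chemokines that recruit neutrophils, had 1347, 817 and 612 CPM, against at most 34.4, 8.35 and 13.5 CPM. Il1r2, the decoy receptor for interleukin 1, had 2040, 2101 and 2260 CPM, and cDC2s, the conventional dendritic cells with the next highest level, had 1147, 224 and 300 CPM. The remaining markers were also found in macrophage classes of the Ptgs+/+ library. Mmp9, a gelatinase of the tertiary granules, had 766 CPM in Ptgs+/+ neutrophils and 768 CPM in the macrophage class TAM 1 of that library. In the other libraries Mmp9 had 979 and 763 CPM in neutrophils and at most 12.6 and 22.3 CPM elsewhere. Cxcl2, a CXCR2 ligand, had 14529, 5709 and 4001 CPM in neutrophils, and reached 5664 CPM in TAM 3, 1805 CPM in the Mono Mac class and 2008 CPM in the highest other class of the 3 libraries in turn.

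**Figure D1:**
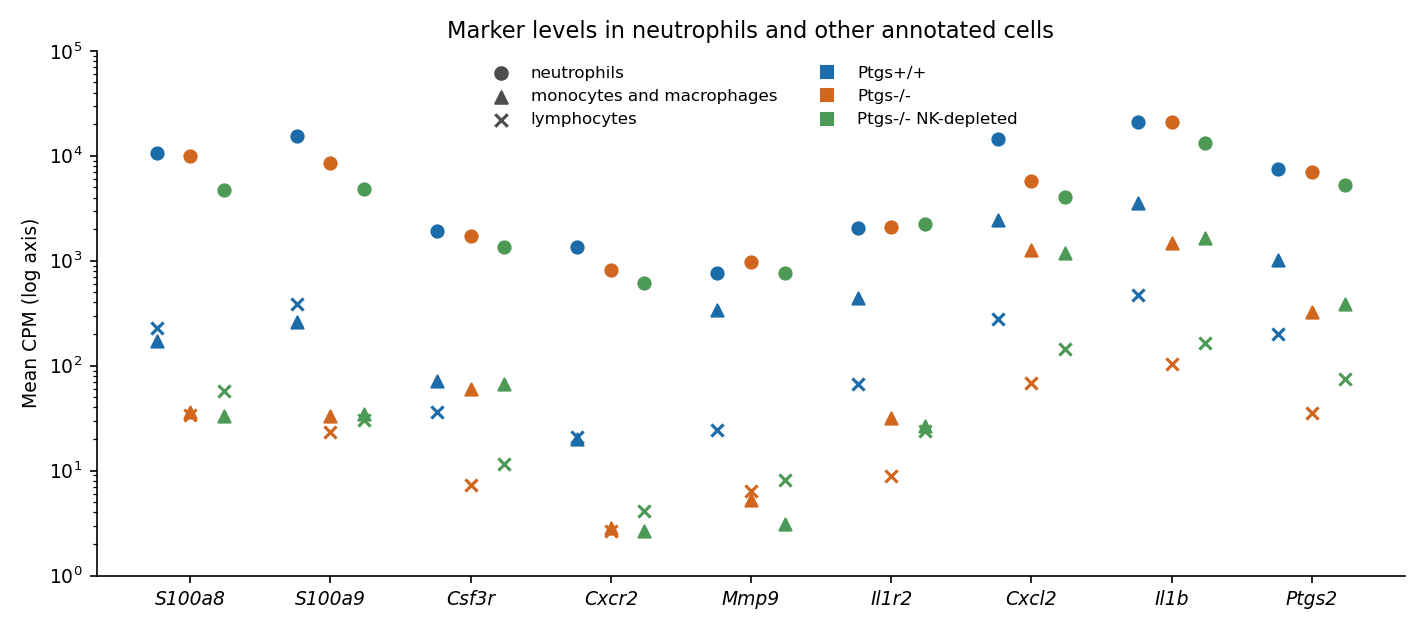
Mean CPM (log axis) of neutrophil marker genes in neutrophils (circles), in monocytes and macrophages pooled (triangles) and in lymphocytes (crosses), coloured by library. Neutrophils lie above both other groups for all 9 genes in each library, and Mmp9 in the Ptgs+/+ library has one of the smaller gaps (766 CPM in neutrophils and 342 CPM in monocytes and macrophages).

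The 15 genes with the largest smallest fold of neutrophils over each of the other 13 classes, with libraries weighted equally, are a description of the class and were not tested, since the annotation rests on the same cells. They were Retnlg, Cxcr2, G0s2, S100a8, S100a9, Hdc, Stfa2l1, Acod1, Mmp9, Hcar2, H2-Q10, Il1f9, Asprv1, Ptgs2os2 and Csf1. The smallest log2 fold was 5.71 for Retnlg, a resistin-like protein of myeloid granulocytes, 5.70 for Cxcr2 and 3.60 for Csf1, the macrophage growth factor. Within single libraries it could be smaller, at 1.60 for Retnlg in Ptgs-/- (700 CPM against 228 CPM in another class) and 1.54 for Csf1 in Ptgs+/+ tumours. For Mmp9 it was -0.0035 in Ptgs+/+ tumours, so Mmp9 did not set neutrophils apart from every class there. In the NK-depleted library Retnlg had 2922 CPM in all neutrophils and 597 CPM in those with a Csf3r or Cxcr2 UMI and no eosinophil marker. Hdc, which makes histamine, had 4899, 3251 and 2743 CPM against at most 314, 63.3 and 142 CPM in another class. Acod1, which makes itaconate, had 1590, 964 and 624 CPM against at most 83.1, 24.5 and 33.2 CPM.

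Transcripts of immature neutrophils were almost absent. The azurophil granule genes Mpo, Elane, Prtn3 and Ctsg, the precursor genes Ms4a3 and Prss57, and the specific granule genes Camp and Ngp had 0 UMIs in all 3 libraries. Ltf, which encodes lactoferrin of the specific granules, had 1, 11 and 3 UMIs. Ly6g, the usual surface marker of mouse neutrophils, had 6, 0 and 0 UMIs, so it did not identify these cells at this depth.

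UMIs of neutrophil genes were also found in lymphocytes, at shares that differed between genes. Whether they came from free RNA in the droplets was not tested. A UMI of S100a8 was found in 84.9% of Ptgs+/+, 64.9% of Ptgs-/- and 47.4% of NK-depleted Ptgs-/- neutrophils, and in 6.19%, 0.911% and 4.21% of lymphocytes, which should lack it. Median depth was 842, 1156 and 965.5 UMIs in neutrophils and 1642, 2036 and 2179.5 UMIs in lymphocytes. With each cell thinned to 500 UMIs the shares were 78.5%, 61.3% and 43.4% in neutrophils and 2.21%, 0.781% and 2.11% in lymphocytes. A UMI of Il1b was found in 96.6%, 91.0% and 68.4% of neutrophils and 16.8%, 6.90% and 7.89% of lymphocytes, and one of Cxcl2 in 84.9%, 61.3% and 53.9% against 11.5%, 6.38% and 14.7%. For these 3 genes the neutrophil shares were above those of lymphocytes in each library, before and after thinning.

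The content of the annotated class differed between libraries, which bears on every comparison below. At least 3 of the 5 markers S100a8, S100a9, Cxcl2, Il1r2 and Mmp9 were detected in 84.4% of Ptgs+/+ neutrophils (exact Clopper-Pearson 78.7 to 89.1%), 71.2% of Ptgs-/- neutrophils (61.8 to 79.4%) and 50% of NK-depleted Ptgs-/- neutrophils (38.3 to 61.7%). None of the 5 was detected in 0, 6 and 11 cells. A UMI of Csf3r or Cxcr2 was found in 171 of 205, 85 of 111 and 40 of 76 cells (83.4%, 76.6% and 52.6%). By each of these measures the Ptgs+/+ library held the highest and the NK-depleted library the lowest share of marker-positive cells.

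Eosinophil transcripts were most frequent in the NK-depleted library. Of 8 eosinophil markers, 7 were in the matrix, and a UMI of any of them was found in 6 Ptgs+/+ neutrophils (2.93%, 1.08 to 6.26%), 12 Ptgs-/- neutrophils (10.8%, 5.71 to 18.1%) and 19 NK-depleted Ptgs-/- neutrophils (25%, 15.8 to 36.3%). In all other classes together the shares were 1.05%, 2.56% and 1.95%. The neutrophils with an eosinophil marker had a median of 755.5, 1442 and 644 UMIs. With cells thinned to equal depth as above, a marker was left in 4 Ptgs+/+, 3 Ptgs-/- and 19 NK-depleted Ptgs-/- neutrophils. Most of the 12 Ptgs-/- cells thus lost their marker on thinning, while the count in the NK-depleted library did not change. The summed eosinophil marker level was 37.5, 121 and 1285 CPM. Prg2 and Ear1 were at 0 in all 3 libraries, and Il5ra and Ear6 were at 0 in the Ptgs+/+ and Ptgs-/- libraries.

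The 19 NK-depleted Ptgs-/- cells with an eosinophil marker had a median of 644 UMIs and 405 genes, and 2 of them had at least 3 of the 5 neutrophil markers. Their mean level was 2054 CPM for Ccr3, the eotaxin receptor, 1346 CPM for Siglecf, a lectin of eosinophils and of some tumour neutrophils, and 1570 CPM for Alox15, a lipoxygenase. S100a8 was at 679 CPM, with a UMI in 2 cells, and Csf3r was at 112 CPM, with a UMI in 1 cell. Retnlg, at 6740 CPM with a UMI in 12 cells, and Ccl6, a chemokine of myeloid cells at 5893 CPM with a UMI in 19 cells, were high in them. In the 12 Ptgs-/- cells with an eosinophil marker, by contrast, S100a8 had 12340 CPM, with a UMI in 6 cells. That mean was uneven, since 1 cell had 233 UMIs of S100a8 and S100a9 together. Of the 12 cells, 9 also had a Csf3r or Cxcr2 UMI. For the NK-depleted library, then, the label Neutrophils also covers cells that mostly lack S100a8, S100a9 and Csf3r and carry eosinophil markers. Cxcl2, also 1 of the 5 neutrophil markers, was still found in 11 of these 19 cells, at 3568 CPM. A further 18 cells of that library had no UMI of Csf3r, Cxcr2 or an eosinophil marker. S100a8 was found in 3 of those 18, against 25 of 32 such cells in Ptgs+/+ and 9 of 23 in Ptgs-/- tumours. Retnlg, at 3926 CPM, and Ccl6, at 2722 CPM, were high in the 18 as well. Each comparison below is also given for the receptor-positive neutrophils, the 167, 76 and 39 cells with a UMI of Csf3r or Cxcr2 and none of an eosinophil marker. That subset was chosen after seeing the data, it fixes the eosinophil markers at 0, and it favours Csf3r and Cxcr2.

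Markers of other cell types were low but unequal. The 12 monocyte markers summed to 287, 788 and 837 CPM, the 12 macrophage markers to 516, 705 and 623 CPM, and the 12 dendritic cell markers to 230, 485 and 693 CPM. The 8 NK cell markers summed to 13.7, 177 and 6.24 CPM, with Ncr1 and Eomes at 0 in all 3 libraries, and the 8 T cell markers to 4.33, 58.7 and 23.8 CPM. The 7 B cell markers summed to 0, 64.4 and 11.3 CPM. The 8 mast cell and basophil markers summed to 0, 131 and 0 CPM, all of it from 2 cells. Melanoma and stroma markers (7 of 10 in the matrix, Pmel and Dct at 0 throughout) summed to 53.4, 4.99 and 62.1 CPM and platelet and red cell markers to 48.6, 7.51 and 0 CPM. The Ptgs-/- library was highest for the lymphocyte lists and the Ptgs+/+ library lowest for the monocyte, macrophage and dendritic lists. The lymphocyte sums of the Ptgs-/- library rested on few cells. They came from 19 UMIs in 3 cells for NK, 6 UMIs in 5 cells for T and 9 UMIs in 2 cells for B cell markers. The part of these markers in the results below was not tested.

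**Figure D2:**
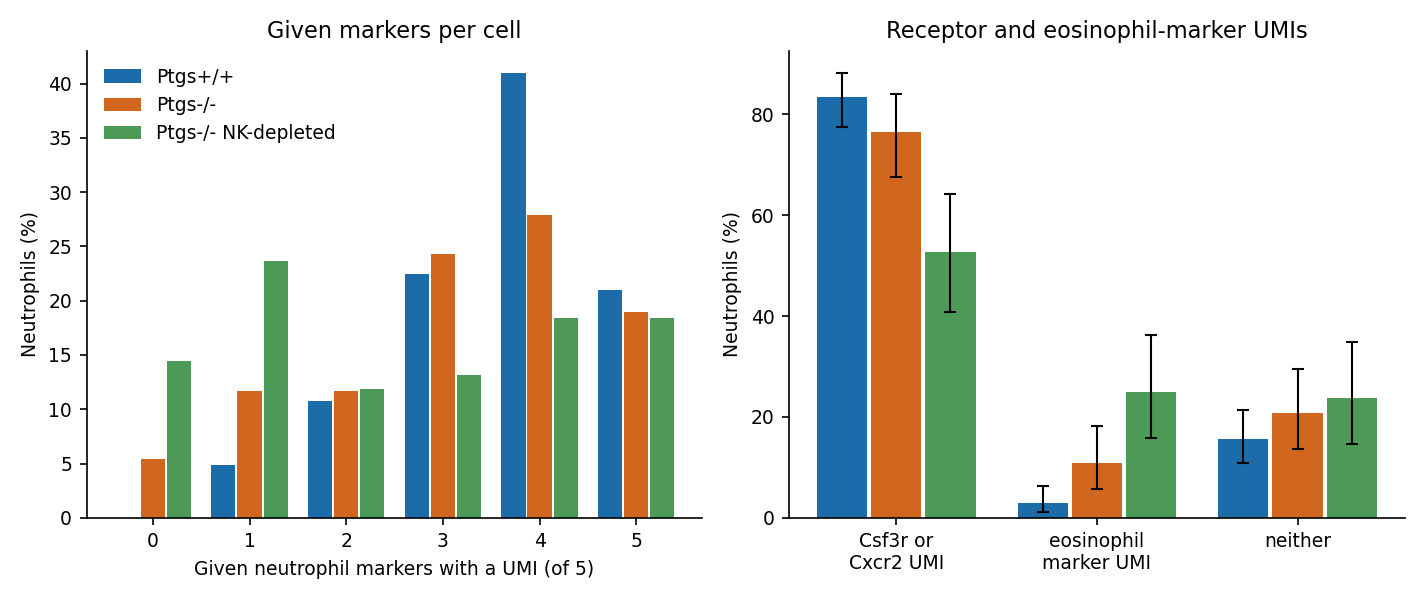
Content of the annotated neutrophil class in each library: cells by the number of the 5 markers detected, and the share of cells (%) with a Csf3r or Cxcr2 UMI, with an eosinophil marker UMI, or with neither, with 95% Clopper-Pearson intervals as error bars. Without thinning, the share with an eosinophil marker is 2.93% in Ptgs+/+, 10.8% in Ptgs-/- and 25% in NK-depleted Ptgs-/- neutrophils. After thinning to equal depth, 4, 3 and 19 cells of the libraries in turn have such a marker.

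Neutrophils were the class with the fewest UMIs per cell in each library. Their median was 842 UMIs and 459 genes in Ptgs+/+, 1156 UMIs and 651 genes in Ptgs-/-, and 965.5 UMIs and 539 genes in NK-depleted Ptgs-/- tumours. The next lowest class medians were 1131, 1455 and 1623 UMIs, and the medians over all cells were 3634, 4562 and 5462 UMIs. No cell in the matrix had fewer than 500 UMIs, so the lower edge of the class was cut in all libraries. The median mitochondrial share was 0.343%, 0.491% and 1.04% in neutrophils and 3.20%, 3.21% and 3.83% in other cells. Ptgs+/+ neutrophils were the shallowest, by UMIs and by genes.

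Neutrophils made up 6.28% of annotated cells in Ptgs+/+ tumours (205 of 3262, 5.48 to 7.17%), 2.37% in Ptgs-/- tumours (111 of 4677, 1.96 to 2.85%) and 1.96% in NK-depleted Ptgs-/- tumours (76 of 3879, 1.55 to 2.45%). The share was 2.65-fold lower in Ptgs-/- than in Ptgs+/+ tumours (interval of the ratio 2.11 to 3.32), while the ratio of NK-depleted Ptgs-/- to Ptgs-/- tumours was 0.826 (0.619 to 1.10). Among myeloid cells only, the shares were 6.75%, 2.84% and 2.06%. The receptor-positive neutrophils made up 5.12%, 1.62% and 1.01% of cells. In all of these the Ptgs+/+ library had the highest share.

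How far the Ptgs+/+ share stood above the others depended on the shallow cells. Every annotated class had its lowest median UMIs in the Ptgs+/+ library, so a fixed minimum did not cut the libraries alike. Among cells with at least 500 genes the shares were 2.34%, 1.98% and 1.18%, and the Ptgs-/- over Ptgs+/+ ratio was 0.845 (0.622 to 1.15). Among cells with at least 1000 UMIs they were 1.79%, 1.68% and 0.954%, with a ratio of 0.939 (0.665 to 1.33). Only 72 of 205 Ptgs+/+ neutrophils (35.1%) had at least 500 genes, against 91 of 111 (82.0%) in Ptgs-/- and 45 of 76 (59.2%) in NK-depleted Ptgs-/- tumours. At a minimum of 600 genes the order was turned, at 0.670%, 1.57% and 0.849%. Of the 133 Ptgs+/+ neutrophils under 500 genes, 110 had at least 3 of the 5 markers and 4 had an eosinophil marker, so these shallow cells carried the neutrophil transcripts. Of the 31 NK-depleted Ptgs-/- neutrophils under 500 genes, 2 had at least 3 of the 5 markers and 14 had an eosinophil marker. A definition free of the annotation, a UMI of Csf3r and of S100a8 or S100a9 after thinning to 500 UMIs, gave 4.02%, 1.13% and 0.799%. By that definition the Ptgs-/- over Ptgs+/+ ratio was 0.282 (0.206 to 0.387), against 0.378 for the annotated class with no minimum. The share of neutrophils that fell below the deposited minimum of 500 UMIs is not known from these values.

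**Figure D3:**
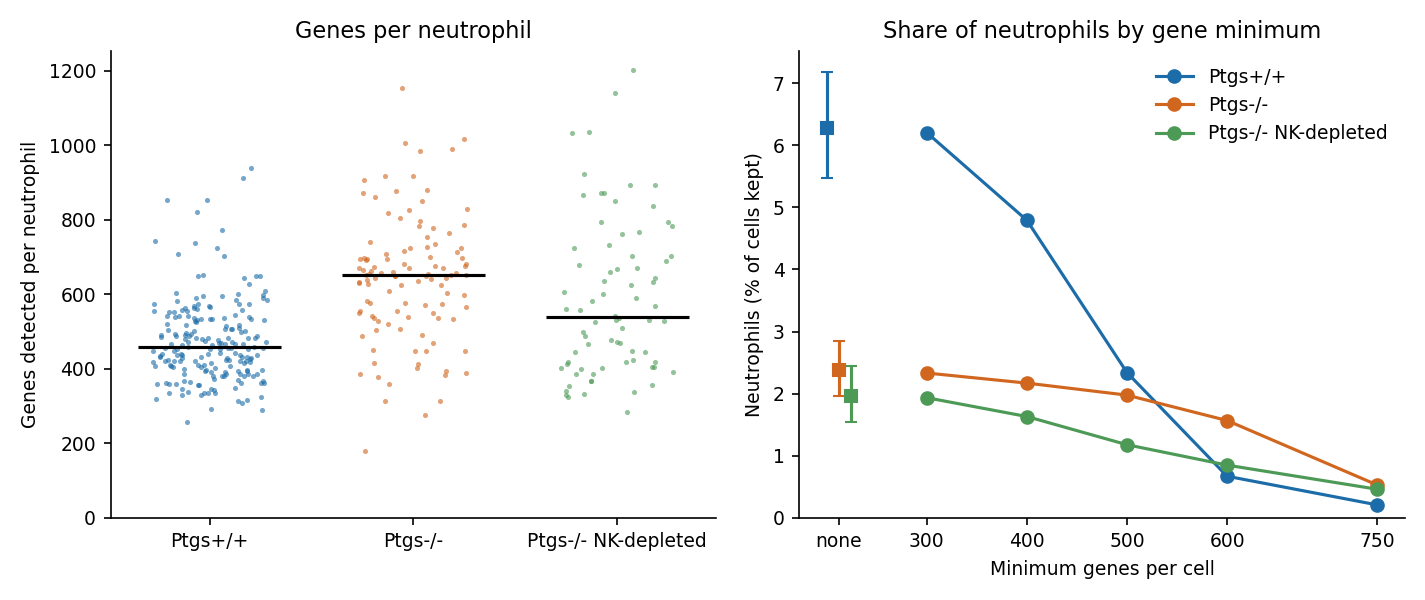
Genes detected per neutrophil in each library (left; points are cells, lines are medians) and the share of neutrophils among annotated cells (%) at rising minimum numbers of genes per cell (right; squares are the share with no minimum, with 95% Clopper-Pearson intervals). The medians are 459, 651 and 539 genes. The Ptgs+/+ share starts at 6.28%, passes 2.34% at 500 genes and is the lowest of the 3 at 600 genes.

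To compare expression between Ptgs-/- and Ptgs+/+ neutrophils, folds were computed on log2(mean CPM + 5) for genes seen in at least 10% of neutrophils of either library. The median gene was higher by 0.19 in Ptgs-/- neutrophils, so folds are given relative to that median, and a gene was called higher or lower by size, past 1.5-fold. Of 1784 genes, 374 were higher (21%) and 339 were lower (19%) in Ptgs-/- neutrophils, and without the centring 524 were higher and 232 lower. In the receptor-positive cells 23.2% of 1928 genes were higher and 19.9% lower. Ratios of summed UMIs are not centred. Their intervals treat UMIs as independent, although UMIs of 1 cell are not.

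Cxcl2 and Cxcl3, chemokines that bind CXCR2, were lower in Ptgs-/- neutrophils. Of 6 tested chemokines (16 listed), 1 was higher and 2 were lower, and in the receptor-positive cells 0 and 4 of 5. Cxcl2 had 14529 CPM (2562 UMIs) in Ptgs+/+ neutrophils, 5709 CPM (792 UMIs) in Ptgs-/- neutrophils and 4001 CPM (347 UMIs) in NK-depleted Ptgs-/- neutrophils. It was highest in Ptgs+/+ neutrophils, with a log2 fold of -1.54 in Ptgs-/- neutrophils, -1.61 in the receptor-positive cells and a UMI ratio of 0.428 (0.394 to 0.463). Cxcl3, a close relative of Cxcl2, had 2343 CPM (409 UMIs), 507 CPM (73 UMIs) and 224 CPM (16 UMIs). Its log2 fold was -2.39 with a UMI ratio of 0.247 (0.190 to 0.317), and in the receptor-positive cells the log2 fold was -5.43. Cxcl3 was uneven over cells: it was found in 54, 9 and 10 cells, and the top 10% of cells held 72.6% of its UMIs in Ptgs+/+ and 100% in Ptgs-/- neutrophils. The same 2 genes were also highest in Ptgs+/+ monocytes and macrophages, where Cxcl2 had 2440, 1278 and 1173 CPM and Cxcl3 327, 23.3 and 12.7 CPM.

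The proximal promoters of Cxcl2 and Cxcl3 are printed because these genes were lower in Ptgs-/- neutrophils, beside those of Il1b and Ptgs2, which differed little. Each is the 150 bases before the annotated start, 5′ to 3′ on the gene's strand, from RefSeq on GRCm38.p6. Capitals mark the NF-kB motif, GGGA and TTTCC with 1 base between them.
Cxcl2 at chr5:90903749-90903898, plus strand: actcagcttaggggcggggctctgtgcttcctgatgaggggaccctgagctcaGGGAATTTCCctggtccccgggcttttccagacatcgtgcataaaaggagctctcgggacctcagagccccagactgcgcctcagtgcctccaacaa
Cxcl3 at chr5:90785951-90786100, plus strand: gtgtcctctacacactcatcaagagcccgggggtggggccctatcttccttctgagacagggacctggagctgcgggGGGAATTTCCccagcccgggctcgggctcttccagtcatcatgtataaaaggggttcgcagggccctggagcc
Il1b at chr2:129371140-129371289, minus strand: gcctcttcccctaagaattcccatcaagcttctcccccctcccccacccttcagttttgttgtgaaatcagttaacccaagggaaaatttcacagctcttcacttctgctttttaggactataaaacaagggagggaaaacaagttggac
Ptgs2 at chr1:150099881-150100030, plus strand: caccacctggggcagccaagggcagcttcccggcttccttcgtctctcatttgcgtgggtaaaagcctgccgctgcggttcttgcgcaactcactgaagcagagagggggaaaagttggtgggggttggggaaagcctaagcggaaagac
Searched on both strands over the 250 bases before the start, the NF-kB motif was found 97 bases before the start of Cxcl2 and 73 bases before that of Cxcl3, and not in the windows of Il1b and Ptgs2. It was found in 117 of 32851 RefSeq promoter windows (0.356%). The cAMP response element TGACGTCA (1.55% of windows) and the AP-1 motif TGANTCA (6.75%) were in none of the 4 windows. The C/EBP motif TTNCNNAA (36.8% of windows) had 1 match in Cxcl2, 1 in Il1b and 3 in Ptgs2, of which 2 are the same bases read on either strand. TATAAA (12.4%) was found 30 bases before the start of Cxcl3 and 31 before that of Il1b. A match is a description of the letters, and no binding was measured.

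Il1b and Ptgs2 were at about the same level in Ptgs-/- and Ptgs+/+ neutrophils. Over the whole class they were lower in NK-depleted Ptgs-/- than in Ptgs+/+ neutrophils, a difference that was smaller in the receptor-positive cells. Il1b, the main interleukin 1 cytokine of myeloid cells, had 20923, 20736 and 13302 CPM in Ptgs+/+, Ptgs-/- and NK-depleted Ptgs-/- neutrophils. The Ptgs-/- over Ptgs+/+ UMI ratio was 1.00 (0.953 to 1.05) and the log2 fold -0.20. Ptgs2, the inducible cyclooxygenase, had 7542, 6932 and 5317 CPM, with a UMI ratio of 0.961 (0.883 to 1.05). In the receptor-positive cells of the 3 libraries Il1b had 22187, 25990 and 22878 CPM and Ptgs2 had 8099, 8144 and 7458 CPM. Il1r2 had a UMI ratio of 1.07 (0.914 to 1.26). Monocytes and macrophages of the Ptgs-/- libraries had lower levels of all 3 genes than those of the Ptgs+/+ library, at 3581, 1478 and 1656 CPM for Il1b, 1020, 327 and 387 CPM for Ptgs2, and 445, 31.8 and 26.8 CPM for Il1r2. Of 6 tested members of the interleukin 1 and inflammasome list (14 listed), 0 were higher and 1 was lower in Ptgs-/- neutrophils. In NK-depleted Ptgs-/- neutrophils against Ptgs+/+, 0 were higher and 4 lower (1 and 3 of 7 in the receptor-positive cells). Over all genes, that second comparison had 27.1% higher and 28.2% lower (26.6% and 22.8% in the receptor-positive cells).

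Thbs1, the matrix protein thrombospondin 1, which activates latent TGF-beta, had 7685 CPM (1372 UMIs), 2570 CPM (309 UMIs) and 3412 CPM (248 UMIs). Both Ptgs-/- libraries were below the Ptgs+/+ library, with a log2 fold of -1.77 in Ptgs-/- neutrophils (-1.74 in the receptor-positive cells) and a UMI ratio of 0.312 (0.275 to 0.353). In monocytes and macrophages Thbs1 had 5124, 1063 and 1295 CPM, the same order of libraries. The tumour neutrophil list, genes reported by others in neutrophils of tumours, had 15 of 24 members tested, of which 2 were higher and 6 lower in Ptgs-/- neutrophils. Its lower members included Cd14, the lipopolysaccharide co-receptor, at 2438, 1274 and 726 CPM (log2 fold -1.13), and Arg2, the mitochondrial arginase, at 310, 133 and 207 CPM (log2 fold -1.38). Cd274, which encodes PD-L1, had 210, 128 and 83.6 CPM, from 34, 20 and 8 UMIs. Vegfa, the vascular growth factor, had 295, 475 and 923 CPM, with a log2 fold of 0.49 that did not pass 1.5-fold in Ptgs-/- neutrophils.

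The interferon-induced transmembrane genes, which restrict virus entry, were lower in Ptgs-/- neutrophils for 2 of 3 tested members. Ifitm1 had 2353 CPM (444 UMIs), 903 CPM (116 UMIs) and 481 CPM (46 UMIs), with a log2 fold of -1.57 and a UMI ratio of 0.361 (0.292 to 0.444). Ifitm2 had 1780, 536 and 625 CPM, with a log2 fold of -1.91. Ifitm3 had 658, 512 and 286 CPM and a log2 fold of -0.55, within 1.5-fold. Ifitm1 was close to 0 in the monocytes and macrophages of the Ptgs-/- libraries, which had 13.2 and 12.1 CPM against 1489 CPM in Ptgs+/+ tumours. Of 7 tested type I interferon genes (22 listed), 0 were higher and 2 lower in Ptgs-/- neutrophils, with a median log2 fold of -0.34.

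Alarmin and granule transcripts were level or lower in Ptgs-/- neutrophils. S100a9 had a log2 fold of -1.04 and a UMI ratio of 0.576 (0.537 to 0.616), while S100a8, its partner in the calprotectin dimer, had -0.31 and 0.955 (0.890 to 1.02). In the receptor-positive cells the 2 folds were -1.04 and -0.29, so the difference between the partners was also seen there. Of 9 tested alarmin and cystatin genes (12 listed), 0 were higher and 4 lower in Ptgs-/- neutrophils, including S100a11 at 1992, 1149 and 1005 CPM and Wfdc17, a small secreted antiprotease-like protein, at 966, 549 and 117 CPM. Of 8 tested secondary and tertiary granule genes (14 listed), 0 were higher and 4 lower. Among them Slpi, the secretory leukocyte protease inhibitor, had 1567, 797 and 475 CPM (log2 fold -1.16) and Hp, haptoglobin, had 617, 209 and 168 CPM (-1.73). Lrg1, a glycoprotein of neutrophil granules, was among the 10 lowest genes, at 802 CPM (154 UMIs), 154 CPM (19 UMIs) and 108 CPM (10 UMIs). Its log2 fold was -2.53 and its UMI ratio 0.171 (0.10 to 0.276).

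Receptors that guide neutrophils were level or lower. Of 13 tested trafficking receptors (16 listed), 0 were higher and 6 lower in Ptgs-/- neutrophils, and in the receptor-positive cells 0 and 4 of 13. Cxcr2 had a log2 fold of -0.91 and a UMI ratio of 0.595 (0.469 to 0.751). Fpr2, a formyl peptide receptor, had 298, 128 and 171 CPM (log2 fold -1.39), and Ccr1, a receptor for CCL3 and related chemokines, had 2052, 1393 and 1209 CPM (-0.75). Cxcr4, the marrow retention receptor, had 1458, 1428 and 1799 CPM (-0.22) and Csf3r had a log2 fold of -0.35 with a UMI ratio of 0.907 (0.762 to 1.08), both within 1.5-fold. The other 16 neutrophil markers gave 14 tested genes, with 0 higher and 10 lower in Ptgs-/- neutrophils.

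Of 20 tested hypoxia and glycolysis genes (22 listed), 1 was higher and 6 lower in Ptgs-/- neutrophils (median -0.33). The counts were 1 and 10 of 20 in the receptor-positive cells (median -0.60). The median was -0.70 in cells with at least 3 of the 5 markers, whereas among neutrophils with at least 500 genes it was 0.09. The lower genes included Hif1a, the oxygen-regulated transcription factor, at 458, 161 and 331 CPM (log2 fold -1.67) and Slc2a3, a glucose transporter, at 303, 141 and 229 CPM (-1.27). Of 9 tested cAMP-responsive genes (12 listed), 1 was higher and 3 were lower. Crem, a cAMP-induced repressor, had 234 CPM (42 UMIs), 28.6 CPM (4 UMIs) and 67.8 CPM (5 UMIs), and Pde4b, which degrades cAMP, had 384, 162 and 441 CPM. Nr4a2, an orphan nuclear receptor, was higher, at 148, 427 and 360 CPM (log2 fold 1.30). Of 16 tested survival and death genes (19 listed), 3 were higher and 4 lower. Mcl1, on which neutrophil survival depends, had 4823, 3061 and 3141 CPM (-0.85). Zfp36, which destabilises cytokine mRNAs, had 3853, 2126 and 3765 CPM (-1.05), so that it was low in the Ptgs-/- library and not in the NK-depleted one.

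The prostaglandin receptors were near the limit of detection. Ptger2 had 4, 3 and 0 UMIs and Ptger4 had 1, 5 and 3 UMIs in the 205, 111 and 76 neutrophils, too few for a fold. Ptges, the terminal prostaglandin E synthase, and Ptgir, the prostacyclin receptor, had 0 UMIs in all 3. Of 6 tested eicosanoid genes (18 listed), 1 was higher and 1 lower in Ptgs-/- neutrophils.

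Some single genes of redox defence and innate recognition were higher in Ptgs-/- neutrophils, while their lists were not. Of 8 tested oxidative burst and NET genes (13 listed), 2 were higher and 1 lower, with a median log2 fold of -0.02. Of 10 tested pattern recognition genes (16 listed), 1 was higher and 4 were lower, with a median of -0.54, and in the receptor-positive cells 2 and 3 of 13. Gpx1, a glutathione peroxidase, had 344 CPM (62 UMIs), 1082 CPM (142 UMIs) and 1262 CPM (96 UMIs), with a log2 fold of 1.45 (1.65 in the receptor-positive cells) and a UMI ratio of 3.17 (2.34 to 4.34). Ncf1, the p47 subunit of the NADPH oxidase, had 253, 808 and 847 CPM, with a log2 fold of 1.46 (1.59) and a UMI ratio of 2.98 (2.12 to 4.25). Both were low in Ptgs+/+ neutrophils and higher in the 2 Ptgs-/- libraries, and monocytes and macrophages had the same order, at 75.7, 220 and 232 CPM for Ncf1. Clec4n, the fungal lectin dectin-2, had 197, 710 and 437 CPM in neutrophils (log2 fold 1.63, UMI ratio 3.69, 2.49 to 5.57). In monocytes and macrophages it ran the opposite way, at 670, 169 and 131 CPM. Bcl2a1b, an anti-apoptotic gene of a family of near-identical copies whose counts may be split between members, had 124, 437 and 253 CPM. All 3 tested MHC class II genes (7 listed) were higher in Ptgs-/- neutrophils, and 2 of 3 in the receptor-positive cells. Cd74 and H2-Ab1 are also the 2 tested members of the dendritic cell marker list. Cd74, the invariant chain, had 55.3, 316 and 181 CPM from 14, 39 and 13 UMIs, against 3561, 3921 and 3022 CPM in monocytes and macrophages. A Cd74 UMI was found in 3.90%, 22.5% and 10.5% of neutrophils and in 6.06%, 18.2% and 8.26% of T cells, which should lack it and were deeper, at medians of 1642, 2076 and 2372 UMIs. After thinning to 500 UMIs the shares were 1.95%, 12.6% and 5.26% in neutrophils and 3.03%, 2.80% and 0.917% in T cells. The part of free RNA in the MHC class II levels was not tested.

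Some differences rested on few cells. Spp1, which encodes osteopontin, had 452, 1156 and 280 CPM, but the top 10% of cells held 94.0% of its UMIs in Ptgs-/- neutrophils and the log2 fold of 1.15 became -0.01 in the receptor-positive cells. Ccl9, a chemokine abundant in monocytes and macrophages, had 90.1, 305 and 664 CPM, with a log2 fold of 1.51 in all neutrophils and -0.07 in the receptor-positive ones. Cxcl10, an interferon-induced chemokine, had 0, 16 and 5 UMIs. With 3 counts over the group as the limit for 0, it was at least 7.38-fold higher in Ptgs-/- than in Ptgs+/+ neutrophils.

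The 10 lowest genes of the comparison were Phf8, Wbp1l, Cyth1, Crem, N4bp2, Tbc1d15, Phf21a, Lrg1, Cxcl3 and Atp7a, with log2 folds from -3.84 for Phf8 (25 and 1 UMIs) to -2.31 for Atp7a (26 and 4 UMIs). The 10 highest were Bcl2a1a, Matk, Arhgef3, Dot1l, Eif5b, Cd74, Nono, Tmsb10, Uqcc2 and Dgkg, with log2 folds from 2.93 for Bcl2a1a (4 and 27 UMIs) to 2.08 for Dgkg (3 and 14 UMIs). Apart from Lrg1 and Cxcl3, each of these 20 genes had at most 55 UMIs in either library.

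**Figure D4:**
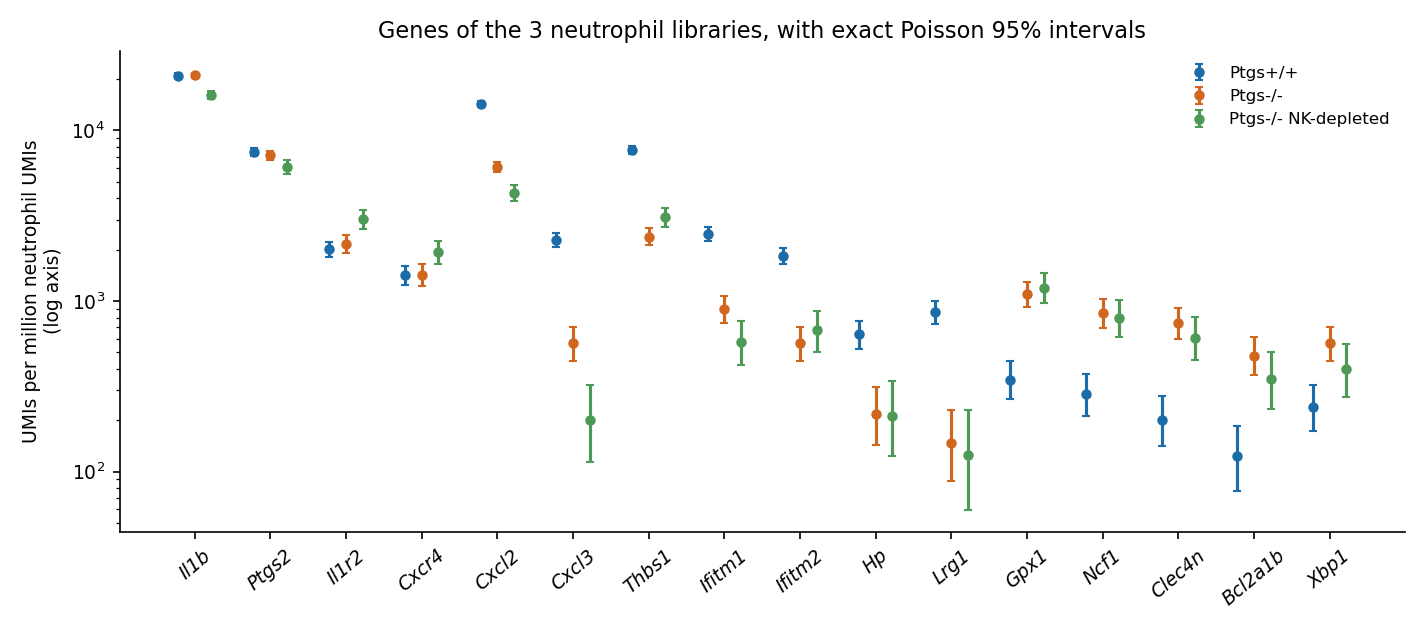
Levels of 16 selected genes as CPM of the UMIs summed over all annotated neutrophils of a library (log axis), with exact Poisson 95% intervals that cover counting error only. Cxcl2, Cxcl3, Thbs1 and Ifitm1 are highest in the Ptgs+/+ library, Gpx1 and Ncf1 are lowest there, and the intervals of Il1b and of Ptgs2 overlap between Ptgs+/+ and Ptgs-/- neutrophils.

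The comparison of NK-depleted Ptgs-/- with Ptgs-/- neutrophils shares the Ptgs-/- library with the comparison above. Of 1985 genes, 429 were higher (21.6%) and 456 lower (23%) in NK-depleted Ptgs-/- neutrophils, and in the receptor-positive cells 25.9% of 2443 genes were higher and 19.4% lower. The median gene differed by -0.02, so folds were not centred. For S100a8, S100a9 and Il1b the difference was smaller among the receptor-positive cells. S100a8 had a log2 fold of -1.06 in all neutrophils and -0.38 in the receptor-positive ones, S100a9 -0.82 and -0.34, and Il1b -0.64 and -0.18. Il1r2 went the other way, from 0.11 to 0.56. Among alarmins and cystatins 0 of 9 were higher and 7 lower, against 0 and 2 of 9 in the receptor-positive cells. Among pattern recognition genes 0 of 9 were higher and 7 lower, against 1 and 4 of 13.

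The genes that were higher in NK-depleted Ptgs-/- neutrophils included Retnlg and Ccl6, which were high in the cells of that library with an eosinophil marker. In the 12 Ptgs-/- cells with an eosinophil marker Retnlg had 0 CPM and Ccl6 had 815 CPM. Retnlg had 955, 700 and 2922 CPM in the Ptgs+/+, Ptgs-/- and NK-depleted Ptgs-/- libraries, with a log2 fold of 2.05 against Ptgs-/- and 0.09 in the receptor-positive cells. Ccl6 had 931, 871 and 2596 CPM, with log2 folds of 1.57 and 0.17. Serpinb2, plasminogen activator inhibitor 2, had 0, 0 and 29 UMIs, at least 15.6-fold higher than in Ptgs-/- neutrophils. H2-K1, a classical MHC class I gene with near-identical relatives, had 882, 1707 and 3244 CPM, with log2 folds of 0.92 and -0.03. For these genes the NK-depleted library stood apart in the whole class and not in the receptor-positive cells, where Serpinb2 was not among the genes tested.

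Other differences were seen in both sets of cells. Wfdc17 had 71 UMIs in Ptgs-/- and 11 UMIs in NK-depleted Ptgs-/- neutrophils, with a log2 fold of -2.19 (-1.89 in the receptor-positive cells) and a UMI ratio of 0.250 (0.119 to 0.475). Stfa2l1, a stefin with near-identical copies, had 480, 375 and 86.6 CPM over the 3 libraries and log2 folds of -2.05 and -1.65. Il1rn, the interleukin 1 receptor antagonist, had 966, 1226 and 633 CPM, log2 folds of -0.95 and -0.93, and a UMI ratio of 0.465 (0.331 to 0.642). Tlr2, a receptor for bacterial lipoproteins, had 281, 394 and 138 CPM and log2 folds of -1.48 and -1.26. Isg15, a ubiquitin-like interferon-induced protein, had 858, 774 and 259 CPM, log2 folds of -1.56 and -1.36, and a UMI ratio of 0.326 (0.196 to 0.518). The whole type I interferon list was less clear, with 0 of 6 higher and 4 lower in all neutrophils and 1 and 2 of 9 in the receptor-positive cells.

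On the higher side, Rel, an NF-kB subunit, had 114, 80.3 and 337 CPM from 22, 10 and 27 UMIs, with log2 folds of 2.00 and 1.56 and a UMI ratio of 4.36 (2.04 to 10.1). Tnfaip3, which encodes the NF-kB inhibitor A20, had 509, 424 and 1382 CPM, with log2 folds of 1.69 and 0.93. Olr1, the oxidised lipoprotein receptor LOX-1, had 13.4, 126 and 428 CPM from 3, 18 and 35 UMIs, with log2 folds of 1.72 and 2.46. Zfp36 had log2 folds of 0.82 and 0.75. The NF-kB feedback list had 5 of 12 members higher and 3 lower in all neutrophils, and 4 and 1 of 12 in the receptor-positive cells. Genes of glycolysis and hypoxia had 5 of 20 higher and 2 lower in all neutrophils and 8 and 0 of 20 in the receptor-positive cells. They included Hk2, a hexokinase, at 277, 296 and 591 CPM (log2 folds 0.99 and 2.15) and Slc2a3 (0.68 and 1.07).

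The means of Cxcl2, Thbs1, Ifitm1 and Gpx1 in NK-depleted Ptgs-/- neutrophils lay nearer to those of Ptgs-/- than of Ptgs+/+ neutrophils. Against Ptgs-/- neutrophils the log2 folds were -0.51 for Cxcl2, 0.41 for Thbs1 and 0.22 for Gpx1, all within 1.5-fold, and -0.90 for Ifitm1. Cxcl3 had a log2 fold of -1.16 in all neutrophils and 1.82 in the receptor-positive ones, where its mean was 48.2 CPM in Ptgs-/- and 183 CPM in NK-depleted Ptgs-/- cells. Cxcr2 and Csf3r had log2 folds of -0.41 and -0.32.

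The 10 highest genes in NK-depleted Ptgs-/- over Ptgs-/- neutrophils were Serpinb2, Adora2a, Gapt, Rflnb, F5, Camk1, Epb41, B4galt5, Ccr3 and Sema7a. In the receptor-positive cells Serpinb2, Adora2a and Ccr3 had 0 UMIs in both libraries, the log2 fold of Rflnb went from 3.68 to -0.05 and that of Camk1 from 3.50 to 0.62. The log2 fold of Gapt went from 3.90 to 1.37, that of F5, coagulation factor V, from 3.55 to 1.45, that of Epb41 from 3.46 to 2.11, that of B4galt5 from 3.22 to 0.90 and that of Sema7a, a semaphorin, from 2.90 to 1.62. The 7 genes with a fold were nearer to 0 in the receptor-positive cells, and Ccr3 is an eosinophil marker that their choice fixes at 0. The 10 lowest were Ppm1g, Matk, Ctcf, Tmx1, Pnp, Senp2, B3gnt5, Scarb2, Nono and Alas1, from -4.58 for Ppm1g (15 and 0 UMIs, a value that depends on the added 5 CPM) to -2.47 for Alas1.

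NK-depleted Ptgs-/- neutrophils were last set against Ptgs+/+ neutrophils, with folds centred on the median gene, which was higher by 0.24. Of 1773 genes, 480 were higher (27.1%) and 500 lower (28.2%), and without the centring 632 and 373. In the receptor-positive cells 26.6% of 2232 genes were higher and 22.8% lower. Cxcl2 had a log2 fold of -2.10 (-2.02 in the receptor-positive cells) and a UMI ratio of 0.302 (0.269 to 0.338). Cxcl3 had a log2 fold of -3.60 (-3.71) and a UMI ratio of 0.0873 (0.0494 to 0.144). Thbs1 had -1.42 (-1.68), Ifitm1 -2.52 (-2.05), Lrg1 -3.08 (-2.43) and Wfdc17 -3.24 (-2.91). These genes were lower in both sets of cells. Gpx1, with 1.61 (1.15), and Ncf1, with 1.48 (1.24), were higher in both.

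Calprotectin was lower in this comparison in both sets of cells, with log2 folds of -1.42 (-0.78) for S100a8 and -1.91 (-1.48) for S100a9. Il1b had -0.90 in all neutrophils and -0.29, within 1.5-fold, in the receptor-positive ones. Among alarmins and cystatins 0 of 9 were higher and 8 lower (0 and 6 of 9 in the receptor-positive cells), and among the other neutrophil markers 1 of 15 was higher and 13 lower (0 and 9 of 15). The IFITM family had 0 of 4 higher and 3 lower in both sets. Type I interferon genes had 0 of 7 higher and 6 lower (0 and 4 of 9).

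The 10 lowest genes against Ptgs+/+ neutrophils were B3gnt5, Cxcl3, Isg20, Wfdc17, Antxr2, Lrg1, Sipa1l1, Atp7a, Fcgr4 and Prdx5. Prdx5, a peroxiredoxin, had 801, 360 and 139 CPM over the 3 libraries. Fcgr4, a receptor for IgG, had 146, 102 and 21.1 CPM, from 25, 15 and 2 UMIs. The 10 highest were Serpinb2, Adora2a, Sema7a, Atp2a3, Cish, Olr1, Cybb, Snrpb2, P2ry10 and Siglecf. Of these, Olr1 had a log2 fold of 4.31 in all neutrophils and 4.00 in the receptor-positive ones, while that of P2ry10 went from 4.17 to -1.58.

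**Figure D5:**
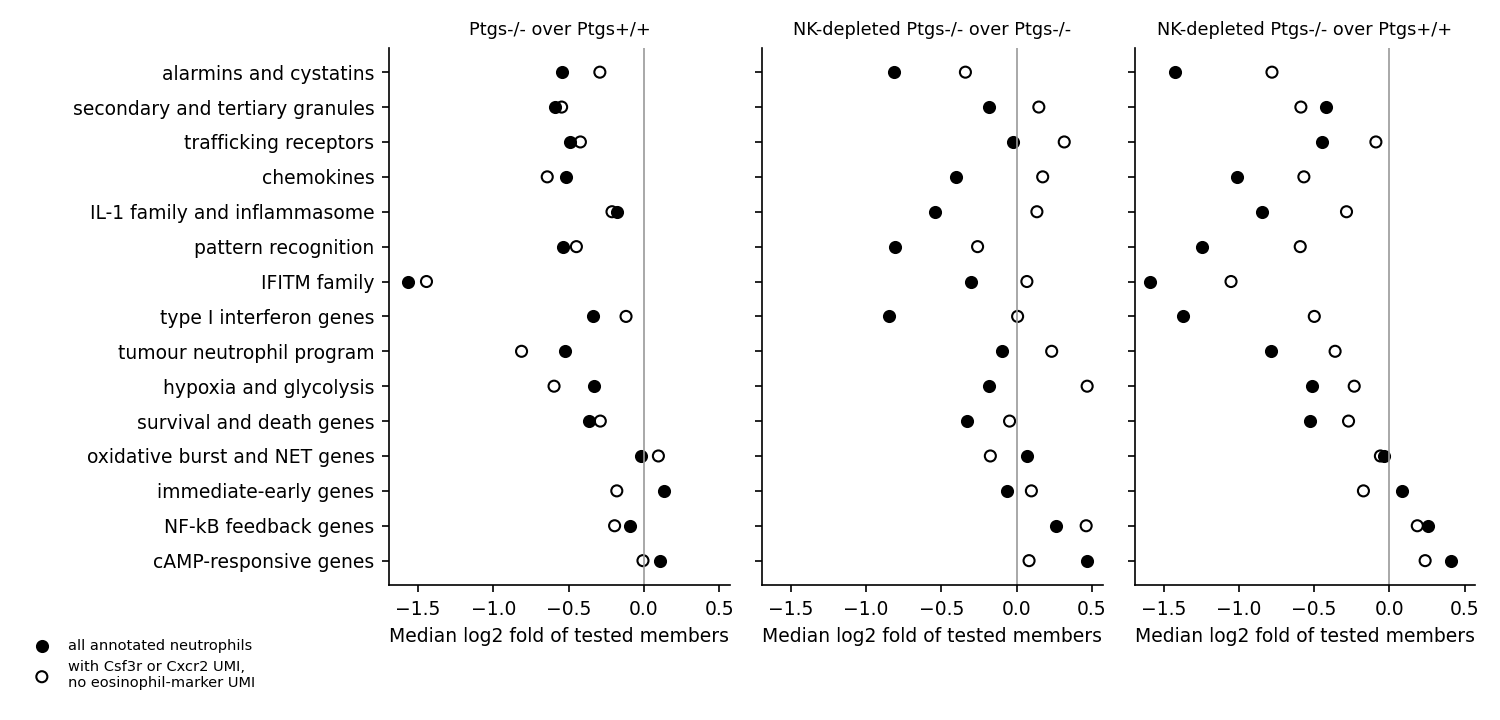
Median log2 fold of the tested members of each gene list in the 3 comparisons, in all annotated neutrophils (filled) and in receptor-positive neutrophils (open). Alarmins and cystatins have medians of -0.54, -0.82 and -1.42 in all neutrophils and -0.29, -0.34 and -0.78 in receptor-positive ones.

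Beside a median gene set to 0, list medians in the receptor-positive cells of the Ptgs-/- over Ptgs+/+ comparison were -1.44 for the IFITM family, -0.72 for the other neutrophil markers, -0.64 for chemokines, -0.60 for hypoxia and glycolysis, and -0.42 for trafficking receptors. They were -0.12 for type I interferon genes, 0.10 for oxidative burst genes, 0.32 for MHC class I genes and 1.91 for the 3 tested MHC class II genes. For the NK-depleted over Ptgs-/- comparison, in which the median receptor-positive gene was at 0.08, hypoxia and glycolysis had 0.47, NF-kB feedback genes 0.46, trafficking receptors 0.32 and alarmins -0.34. MHC class II genes, with 3 tested, had -1.52. The lists were not tested as sets.

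Within a library, interferon-induced transcripts were concentrated in few neutrophils. The 22 type I interferon genes had 646 UMIs in Ptgs+/+, 481 UMIs in Ptgs-/- and 171 UMIs in NK-depleted Ptgs-/- neutrophils, and 66, 31 and 36 cells had none. The top 10% of cells held 52.9%, 64.0% and 69.6% of these UMIs, and the highest single cell had 51, 60 and 38. At least 5 UMIs were found in 18.0%, 17.1% and 10.5% of cells, and in 9.76%, 8.11% and 7.89% after thinning to 500 UMIs. Rsad2, which encodes viperin, had 85.1%, 92.6% and 95.6% of its UMIs in the top 10% of cells. For Il1b the top 10% of cells held 21.9%, 22.9% and 32.9%. Cells rich in interferon-induced transcripts were thus seen in all 3 libraries, at similar shares after thinning.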

How the data were processed

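Live CD45+ cells of 3 tumour libraries were measured by 10x Genomics 3' RNA sequencing. Cell Ranger 3.0.2, mm10 and Partek are named in the submitters' processing notes. Settings, and whether counting used strand, are not given in the sources used here. The deposited matrix holds values on the log2 scale. Tested on the values, these are log2(CPM + 1) per cell, and 99.9% of values above 0 were whole UMIs within 0.1 UMI, so UMIs were recovered, except for 14 genes with parts of a UMI. Of 11872 cells, 36 without annotation and 18 sharing 9 barcodes were left out. Total UMIs were 13341146, 24254737 and 23193663, of which neutrophils held 179220, 129535 and 80299.

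Classes are the authors' own. Doublets were not called, although an alternative drops the 5% of neutrophils with the most genes, and free RNA was not removed. Levels are means of CPM, and folds, differences of log2(mean + 5). UMI ratios have exact conditional binomial intervals, shares exact Clopper-Pearson intervals, and share ratios log-scale intervals. Monocytes and macrophages are pooled from the annotated monocyte, Mono Mac and TAM classes, and lymphocytes are T, B and NK cells.

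The members and gene lists were chosen with earlier results of these data known. Genes are named if they are among 21 chosen by role, the 4 largest folds of a list described or a member with a role, the 10 highest or lowest of a comparison, or the 15 that most set the class apart, and 1 gene of the first set is not reported here. The fold calculation was also run on simulated cells drawn from 1 profile per group. Those cells differed only by depth and counting, so the run does not cover other differences between cells or libraries. Python 3.11.15, numpy 2.4.6, pandas 2.3.3, scipy 1.17.1 and matplotlib 3.10.9 were used. CT26 tumours and cultured cells were not analysed here.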

Additional observations from a re-analysis of the deposited data

How the results depend on the processing

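No paired analysis was possible because each group has 1 library. The ratio of neutrophil shares in Ptgs-/- over Ptgs+/+ tumours was 0.845 with at least 500 genes per cell, 0.939 with at least 1000 UMIs and 0.282 with the marker definition in thinned cells. That of NK-depleted Ptgs-/- over Ptgs-/- tumours was 0.596, 0.568 and, with at least 3 of 5 markers, 0.580. That of NK-depleted Ptgs-/- over Ptgs+/+ tumours was 0.503, 0.533 and 0.199, and 0.196 for receptor-positive cells and 0.185 with at least 3 of 5 markers. The share among receptor-positive cells or with at least 3 of 5 markers was chosen after seeing the data. Keeping repeated barcodes whose copies share library and class was not run, since 0 of the 9 did. In 1 of them a copy was annotated as a neutrophil.

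Genes higher and lower, in Ptgs-/- over Ptgs+/+, NK-depleted over Ptgs-/- and NK-depleted over Ptgs+/+ neutrophils in turn, numbered 760 and 750, 961 and 1014, and 969 and 991 with detection in at least 5% of cells. They numbered 2910 and 2975, 2923 and 3195, and 3273 and 3142 with no filter, and 217 and 159, 253 and 181, and 265 and 282 in cells thinned to 500 UMIs. The filters change how many genes are tested. In NK-depleted over Ptgs-/- neutrophils, the median of type I interferon genes went from -0.85 to 0.00575 and the log2 fold of Cd14 from -0.81 to 0.0477 in receptor-positive cells, and that of Vegfa from 0.95 to -0.0405 with at least 500 genes. The cause was not tested. Of 830 alternative values of 64 list medians, 104 had the other sign. For 1 of these the median had been past 1.5-fold, and 31 other values moved by over 1.5-fold. Chemokines in NK-depleted over Ptgs-/- neutrophils, for example, went from -0.40 to 0.32 with the mean of log2 values per cell. Of 702 values of 54 named gene folds, 36 had the other sign, 2 of them for folds past 1.5-fold, and 146 others left the interval of the UMI ratio. Depth limits Ptger2, Ptger4, Ly6g and other genes with few UMIs.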

Other observations

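The chemokines Ccl3 and Ccl4 tended to be detected in the same neutrophils. Both were found in 36 Ptgs+/+, 21 Ptgs-/- and 14 NK-depleted Ptgs-/- cells. Among cells with a Ccl4 UMI, 57.1%, 63.6% and 63.6% also had a Ccl3 UMI, against 31.7%, 19.2% and 16.7% of cells without one. The share was higher in each library, and the difference was not corrected for depth per cell. Their mean levels were 2485, 1904 and 1262 CPM for Ccl3 and 2513, 2087 and 1704 CPM for Ccl4.

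Il6 had 1, 35 and 1 UMIs in the Ptgs+/+, Ptgs-/- and NK-depleted Ptgs-/- neutrophils, and all 35 in the Ptgs-/- library came from 1 cell. The 19 NK-depleted Ptgs-/- cells with an eosinophil marker also had a higher median mitochondrial share, 2.37%, than the 39 receptor-positive cells of that library, 0.457%.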
